A study of Homo sapiens with 16 samples.

Results

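Integrins and focal adhesion components are described here as 10 genes: the integrin subunits ITGA5, ITGA6, ITGAV, ITGB1 and ITGB5, and the cytoplasmic proteins vinculin (VCL), paxillin (PXN), zyxin (ZYX), talin (TLN1) and filamin A (FLNA). They were taken by gene symbol from a table of 60675 gene identifiers, and all 10 were found and passed the filter on low counts. Polyadenylated RNA was sequenced from H9 cells, a human embryonic stem cell line carrying an EGFP reporter at REX1, grown without feeders on Matrigel in mTeSR1 medium and transfected with pooled siRNAs. SALL4 siRNA and VRTN siRNA cells were harvested at 48 h, and DSCC1 siRNA and SEPHS1 siRNA cells at 72 h (n = 3 each). The references were a siRNA labelled Control and a siRNA against Renilla Luciferase (n = 2 each), for which no harvest time is given, so effects of the time of harvest and of a knockdown cannot be told apart against them. The SALL4, DSCC1, SEPHS1 and Luciferase reagents were enzymatically prepared pools and the VRTN reagent came from another supplier, so reagent type differs between groups too. All groups are 1 reporter line, replicates are described as independent biological replicates, and knockdown was transient.

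Integrins are receptors made of an alpha and a beta subunit that span the plasma membrane and bind extracellular matrix. ITGA5 pairs with ITGB1 to bind fibronectin, ITGA6 pairs with ITGB1 to bind laminin, and ITGAV pairs with ITGB5 to bind vitronectin. Talin binds beta subunit tails and activates the receptor, vinculin binds stretched talin and actin, paxillin is a scaffold for signalling proteins, zyxin marks tensed adhesions and stress fibres, and filamin A crosslinks actin filaments. Human embryonic stem cells without feeders attach to laminin-rich matrix mainly through ITGA6 and ITGB1.

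Library totals ran from 18597262 to 28662389 counts, and 3 counts, the floor used here, were 0.105 to 0.161 CPM (counts scaled to a common library total). The targeted transcript stood at 77.9% of the control level in SALL4 siRNA cells (adjusted p = 0.0562, edgeR), 14.9% in VRTN siRNA cells (adjusted p = 2.04e-16), 20.7% in DSCC1 siRNA cells (adjusted p = 0.486) and 14.9% in SEPHS1 siRNA cells (adjusted p = 9.09e-15). SALL4 and DSCC1 transcripts therefore missed the threshold with edgeR. The DSCC1 transcript had only 5 to 129 counts per library, which limits both its percentage and its test. SALL4 passed with DESeq2 (adjusted p = 0.00909) and limma-voom (0.00563), whereas DSCC1 did not pass with limma-voom (0.27) and had no adjusted p from DESeq2. The SEPHS1 transcript was also lower under SALL4 siRNA, at 50.5% of the controls (adjusted p = 1.13e-05, edgeR). Directions below refer to the siRNA used. Of 12 pluripotency markers, 11 had at least 10 counts in every library, while ZFP42, the REX1 gene itself, had 0 counts in all 16. Transcripts of the mitochondrial genome took 26.4 to 34.8% of counts in SALL4 siRNA libraries, 29.2 to 36.9% in VRTN, 33.6 to 39.2% in DSCC1, 38.7 to 45.5% in SEPHS1, 30.6 to 33.4% in Control and 27.9 to 33.1% in Luciferase libraries. Of 10 fibroblast markers, 4 (COL1A1, COL1A2, THY1 and PDGFRB) had at least 10 counts in every library, whereas DCN and LUM had a median of 0 counts. Because these are bulk cultures, a change in the share of a cell type and a change of RNA per cell cannot be told apart.

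Promoter windows are shown for the 5 members called against the controls in 1 or more knockdowns below: VCL, PXN, ITGA6 and FLNA, which were lower, and ITGB5, which was higher. FLNA was called under SEPHS1 siRNA only. The windows hold 250 bases before and 50 after an annotated start, from RefSeq on GRCh38.p14, read 5′ to 3′ on the gene's strand, and all 10 members had one. VCL is at chr10:73997866-73998165 on the plus strand, PXN at chr12:120265681-120265980 on the minus strand, ITGA6 at chr2:172427336-172427635 on the plus strand, ITGB5 at chr3:124887316-124887615 on the minus strand and FLNA at chrX:154374585-154374884 on the minus strand. Capitals mark, on either strand, GGAATG (known as a TEAD motif), GGGCGG (the SP1 GC box) and the CArG box known for binding SRF.
VCL: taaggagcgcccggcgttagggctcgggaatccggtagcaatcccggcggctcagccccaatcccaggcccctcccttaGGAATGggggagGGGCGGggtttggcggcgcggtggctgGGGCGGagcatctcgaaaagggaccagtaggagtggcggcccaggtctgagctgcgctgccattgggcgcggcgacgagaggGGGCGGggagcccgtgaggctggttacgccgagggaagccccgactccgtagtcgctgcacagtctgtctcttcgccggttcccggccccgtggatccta
PXN: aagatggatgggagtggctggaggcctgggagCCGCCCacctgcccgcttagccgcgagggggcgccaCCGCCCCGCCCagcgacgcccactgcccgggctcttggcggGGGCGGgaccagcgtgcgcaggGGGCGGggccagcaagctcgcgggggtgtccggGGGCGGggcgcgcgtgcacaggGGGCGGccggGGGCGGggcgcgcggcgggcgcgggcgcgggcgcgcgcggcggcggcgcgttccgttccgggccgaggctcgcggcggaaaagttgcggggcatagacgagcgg
ITGA6: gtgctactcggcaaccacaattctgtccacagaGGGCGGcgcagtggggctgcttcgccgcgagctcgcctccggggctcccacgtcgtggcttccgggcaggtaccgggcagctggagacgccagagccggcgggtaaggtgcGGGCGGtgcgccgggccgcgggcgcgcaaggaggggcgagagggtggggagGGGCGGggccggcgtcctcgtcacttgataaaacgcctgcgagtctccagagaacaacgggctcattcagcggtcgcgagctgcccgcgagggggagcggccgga
ITGB5: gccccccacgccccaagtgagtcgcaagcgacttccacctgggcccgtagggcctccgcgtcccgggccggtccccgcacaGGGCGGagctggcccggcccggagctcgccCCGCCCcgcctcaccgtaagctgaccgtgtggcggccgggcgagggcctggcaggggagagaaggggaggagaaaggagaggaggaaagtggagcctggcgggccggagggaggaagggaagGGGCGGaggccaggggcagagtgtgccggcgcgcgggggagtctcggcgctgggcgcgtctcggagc
FLNA: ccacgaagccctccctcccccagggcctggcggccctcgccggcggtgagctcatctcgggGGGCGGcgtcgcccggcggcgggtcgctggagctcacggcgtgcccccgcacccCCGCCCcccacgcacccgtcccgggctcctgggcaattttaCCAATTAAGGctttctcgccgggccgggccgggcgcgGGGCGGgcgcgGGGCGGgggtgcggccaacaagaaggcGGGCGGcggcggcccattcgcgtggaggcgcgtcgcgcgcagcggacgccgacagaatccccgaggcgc
GGGCGG was present in 9 of the 10 members' windows, all but that of ITGAV, against 45.0% of all 35116 windows. The motif holds only G and C, and the members' windows had 69.3 to 81.3% GC, against a median of 58.7% over all windows. GGAATG was present in 3 members, ITGA5, ITGB1 and VCL, against 14.0% of all windows. A CArG box was present in 1 member, FLNA, as CCAATTAAGG starting 94 bases before the annotated start (position -94), against 1.29% of all windows. TATAAA was in none of the 10 members' windows, against 11.5% of all windows, and TGANTCA was in that of ITGA5, against 7.71%. These matches are letters in a window and not measured binding.

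In the control libraries the cytoplasmic proteins were transcribed at higher levels than the receptors. Per kilobase of merged exon, FLNA had 223 ± 9.98 CPM and ZYX 201 ± 7.69 CPM (SD, n = 4), and the ranges of these 2 genes overlapped. VCL followed with 65.3 ± 2.68 CPM per kilobase, PXN with 32.3 ± 1.02 and TLN1 with 14.8 ± 1.21, each apart from its neighbours. The receptors ITGB5 (6.15 ± 0.957), ITGA5 (4.99 ± 1.40), ITGA6 (4.94 ± 0.621) and ITGB1 (4.41 ± 0.588 CPM per kilobase) overlapped from neighbour to neighbour. ITGAV was lowest, with 0.517 ± 0.0954 CPM per kilobase, and had 20 to 216 counts per library over all 16 libraries. The pseudogene ITGB1P1 had 91 to 401 counts, or 16.5 to 39.4% of the ITGB1 count of the same library, so reads shared between copies make the ITGB1 level uncertain. VCL overlaps exons of AP3M1 on the opposite strand over 1109 bases, and the strand setting of the counting is not given. AP3M1 had at most 957 counts, against at least 8124 for VCL.

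**Figure D1:**
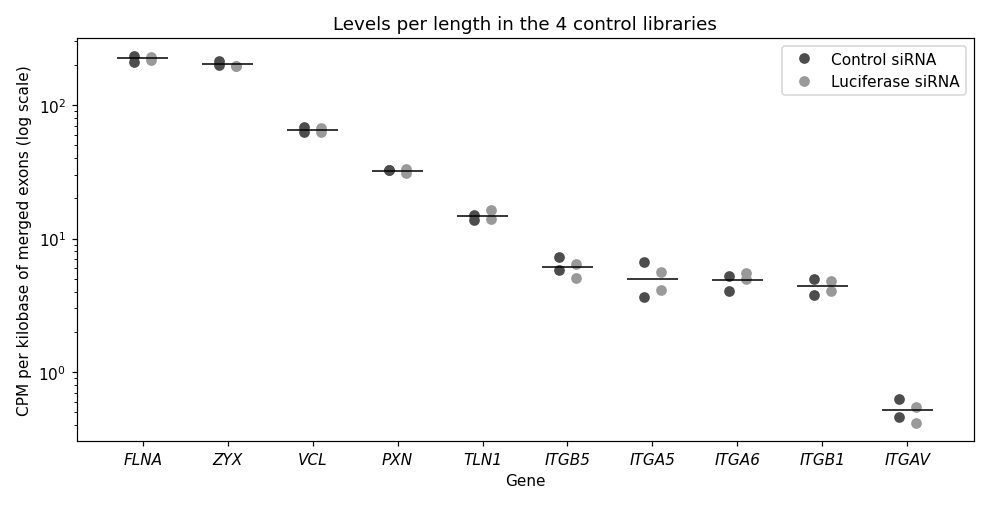
Level of each gene in CPM per kilobase of merged exons (log scale) in the 2 Control siRNA and 2 Luciferase siRNA libraries (points), with the mean of the 4 as a line. FLNA and ZYX lie near 200, VCL near 65.3, 4 of the integrin subunits between 4.41 and 6.15 on average and ITGAV at 0.517.

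The values below, other than the marker sums, are CPM after TMM normalization, not per length. Each comparison tests log2 fold changes with edgeR's quasi-likelihood test over all 19772 genes that passed the filter. A gene is called where its Benjamini-Hochberg adjusted p is under 0.05. The 4 comparisons with controls share the same 4 control libraries, so they are not independent of each other. The 10 members summed to 3552 to 3879 CPM in SALL4 siRNA libraries, 3384 to 3643 in VRTN, 3856 to 4383 in DSCC1 and 3372 to 3495 in SEPHS1, against 4188 to 4308 in Control and 4135 to 4352 in Luciferase libraries. The 5 integrin subunits alone summed to 185 to 205 CPM in SALL4 siRNA libraries and 132 to 152.5 CPM in VRTN libraries, against 136 to 144 CPM in the 4 control libraries.

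**Figure D2:**
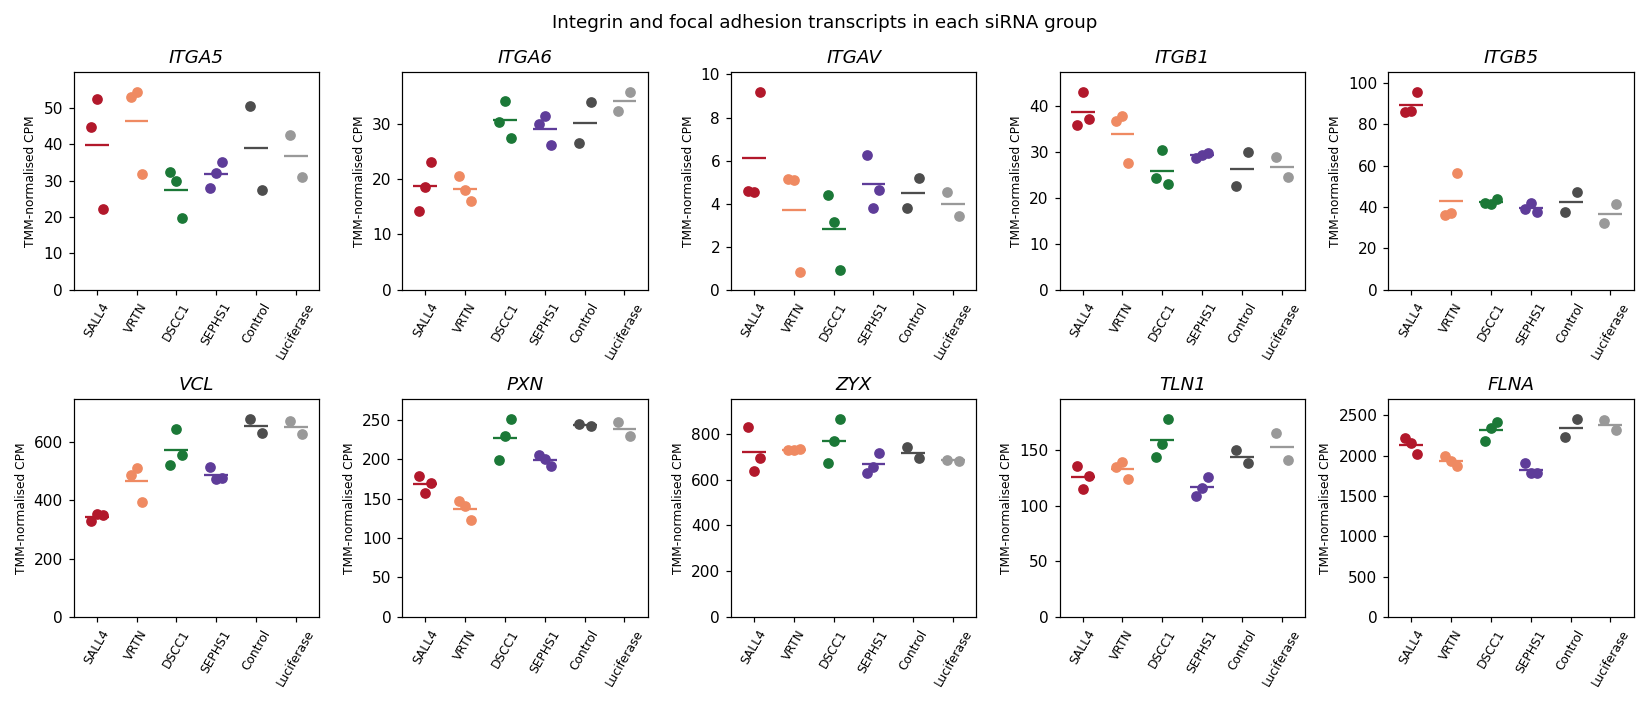
TMM-normalised CPM of each of the 10 genes in every library (points) by siRNA group, with group means as lines and every axis starting at 0. ITGB5 stands apart in the SALL4 siRNA group (85.8 to 95.8 CPM), and VCL is lowest there (328 to 352 CPM).

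Under SALL4 siRNA, which targets a zinc finger transcription factor of the pluripotency network, the vitronectin receptor subunit ITGB5 was higher and the laminin receptor subunit ITGA6, vinculin and paxillin were lower. Of the 10 members 1 was called higher, 3 lower and 6 were not called, whereas 2.98% of all genes tested were called (1.85% higher and 1.13% lower). The median log2 fold change of the members was -0.05, against 0.02 over all genes tested. The knockdown libraries lay wholly outside the control range for 7 of the 10 members, against 13.7% of all genes tested. By edgeR 6 members had an unadjusted p under 0.05, against 13.1% of all genes.

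ITGB5 had 85.8, 86.5 and 95.8 CPM in SALL4 siRNA libraries, against 37.8 and 47.2 CPM in Control and 32.5 and 41.2 CPM in Luciferase libraries. Every knockdown library was above every control library, with no overlap. The ratio was 2.26-fold (log2 fold change 1.18, SE 0.15, adjusted p = 5.08e-06, edgeR), and the call held under every alternative tried. ITGB1, the common beta subunit, had 35.9, 43.2 and 37.15 CPM in SALL4 siRNA libraries, against 22.6 and 30.0 CPM in Control and 28.98 and 24.5 CPM in Luciferase libraries. These did not overlap either, but ITGB1 was not called (log2 fold change 0.55, SE 0.17, adjusted p = 0.0685, edgeR). It passed with DESeq2 (adjusted p = 0.0302) and with limma-voom (adjusted p = 0.0155). Per kilobase, the ratio of ITGB5 to ITGB1 was 2.23, 1.87 and 2.4 in SALL4 siRNA libraries, against 1.55 and 1.47 in Control and 1.04 and 1.57 in Luciferase libraries.

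ITGA6 had 14.3, 18.6 and 23.2 CPM in SALL4 siRNA libraries, against 26.5 and 34.05 CPM in Control and 32.5 and 35.9 CPM in Luciferase libraries. The highest knockdown library was below the lowest control library. Its level was 58.1% of the controls (log2 fold change -0.78, SE 0.18, adjusted p = 0.0109, edgeR). The call was lost against Control siRNA alone (log2 fold change -0.69, adjusted p = 0.150, edgeR) and in a fit of the compared groups only (0.0609). Against replicate 1 of both control siRNAs alone, with 1 library per control group, the log2 fold change was smaller in size, at -0.65. ITGA6 missed the threshold when SALL4 replicate 1 (edgeR adjusted p = 0.130), SALL4 replicate 2 (0.0653) or Control replicate 2 (0.0642) was left out. ITGA5, the fibronectin receptor alpha subunit, spread over 22.2 to 52.5 CPM in SALL4 siRNA libraries, against 27.4 to 50.4 CPM in the controls, and was not called (log2 fold change 0.08, SE 0.23, adjusted p = 0.978, edgeR). ITGAV had 4.54 to 9.20 CPM, against 3.44 to 5.21 CPM in the controls, with overlap and no call (log2 fold change 0.53, SE 0.51, adjusted p = 0.756, edgeR).

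VCL had 328, 352 and 349 CPM in SALL4 siRNA libraries, against 679 and 631 CPM in Control and 673 and 628 CPM in Luciferase libraries. The groups were widely separated relative to the spread within each. Vinculin fell to 52.5% of the control level (log2 fold change -0.93, SE 0.10, adjusted p = 4.06e-07, edgeR), and the call held under every alternative tried. PXN had 179, 157 and 170 CPM in SALL4 siRNA libraries, against 244.5 and 242 CPM in Control and 247 and 230 CPM in Luciferase libraries. Again no knockdown library reached the controls, and paxillin fell to 70.0% of them (log2 fold change -0.52, SE 0.11, adjusted p = 0.00393, edgeR). Paxillin missed the threshold when SALL4 replicate 2 was left out (edgeR adjusted p = 0.0594).

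The talin and filamin transcripts lay below the controls in every SALL4 siRNA library and were not called by edgeR. TLN1 had 115 to 136 CPM, against 138 to 166 CPM in the controls (log2 fold change -0.24, SE 0.11, adjusted p = 0.357, edgeR). FLNA had 2023 to 2220 CPM, against 2233 to 2456 CPM in the controls (log2 fold change -0.15, SE 0.08, adjusted p = 0.476, edgeR), but passed with limma-voom (adjusted p = 0.0426). ZYX had 636 to 830 CPM, against 682 to 741 CPM in the controls, and the groups overlapped (log2 fold change 0.04, SE 0.10, adjusted p = 0.964, edgeR).

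Under VRTN siRNA, against vertnin, named for vertebra development, 3 members were called lower, ITGA6, VCL and PXN, and 0 higher, with 1.13% of all genes called (0.445% higher and 0.683% lower). By edgeR 5 members had an unadjusted p under 0.05, against 9.4% of all genes, and DESeq2 and limma-voom also called 0 higher. The median log2 fold change of the members was -0.18, against 0.02 over all genes, and 4 members did not overlap the controls, against 12.0% of all genes.

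PXN had 146.5, 140.5 and 122 CPM in VRTN siRNA libraries, against 244.5 and 242 CPM in Control and 247 and 230 CPM in Luciferase libraries. No library of either kind came near the other group. Paxillin fell to 56.6% of the controls (log2 fold change -0.82, SE 0.11, adjusted p = 1.89e-05, edgeR), and the call held under every alternative tried. ITGA6 had 20.6, 18.1 and 15.99 CPM in VRTN siRNA libraries, against 26.5 and 34.05 CPM in Control and 32.5 and 35.9 CPM in Luciferase libraries. All 3 lay below the controls, at 56.7% of their level (log2 fold change -0.82, SE 0.18, adjusted p = 0.0159, edgeR). The ITGA6 call was lost against Luciferase or Control siRNA alone (adjusted p = 0.0542 and 0.223, edgeR). With replicate 1 of both control siRNAs alone as controls, its log2 fold change was smaller in size, at -0.685. Leaving out VRTN replicate 2 (edgeR adjusted p = 0.0771), VRTN replicate 3 (0.114) or Control replicate 2 (0.0817) ended this call.

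VCL had 488, 512 and 395 CPM in VRTN siRNA libraries, against 679 and 631 CPM in Control and 673 and 628 CPM in Luciferase libraries. The knockdown libraries were all lower, with replicate 3 lowest. Vinculin fell to 71.2% of the controls (log2 fold change -0.49, SE 0.10, adjusted p = 0.00811, edgeR), and leaving out VRTN replicate 3 ended the call (log2 fold change -0.38, edgeR adjusted p = 0.109). The call was also lost against Luciferase or Control siRNA alone (adjusted p = 0.0759 and 0.0690, edgeR). Against replicate 2 of both control siRNAs alone the log2 fold change was smaller in size, at -0.44. This value does not count as support for the call. FLNA had 1992, 1935 and 1878 CPM in VRTN siRNA libraries, against 2233 and 2456 CPM in Control and 2438 and 2317 CPM in Luciferase libraries. Filamin A was outside the control range in every library but was not called (log2 fold change -0.29, SE 0.08, adjusted p = 0.0941, edgeR). It passed with DESeq2 (adjusted p = 0.000909) and limma-voom (adjusted p = 0.000276).

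The other members overlapped the controls under VRTN siRNA. ITGB5 had 36.1, 36.9 and 56.3 CPM, against 32.5 to 47.2 CPM in the controls (log2 fold change 0.12, SE 0.15, adjusted p = 0.908, edgeR), with replicate 3 alone above them. ITGAV had 5.14, 5.11 and 0.822 CPM, against 3.44 to 5.21 CPM in the controls, and here replicate 3 was alone below. ITGA5 had 53.0, 54.5 and 31.7 CPM, against 27.4 to 50.4 CPM in the controls. For ITGB5, ITGAV, ITGA5 and VCL, replicate 3 thus differed from the other 2 VRTN libraries. ITGB1 (log2 fold change 0.36), ZYX (0.06) and TLN1 (-0.16) were not called either (adjusted p = 0.496, 0.956 and 0.699, edgeR).

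SALL4 siRNA and VRTN siRNA, both at 48 h, were also set against each other, a comparison that uses no control library. Here 1 member was called higher and 1 lower, ITGB5 and VCL, with 2.44% of all genes called (1.73% higher and 0.703% lower), and 4 members did not overlap, against 16.2% of all genes. ITGB5 had 85.8 to 95.8 CPM in SALL4 siRNA libraries, against 36.1 to 56.3 CPM in VRTN siRNA libraries (log2 fold change 1.05, SE 0.16, adjusted p = 9.99e-05, edgeR), and kept its call under every alternative tried. VCL had 328 to 352 CPM in SALL4 siRNA libraries, against 395 to 512 CPM in VRTN siRNA libraries (log2 fold change -0.44, SE 0.11, adjusted p = 0.0203, edgeR). Leaving out SALL4 replicate 1 (edgeR adjusted p = 0.104), SALL4 replicate 2 (0.07), VRTN replicate 1 (0.115) or VRTN replicate 2 (0.151) ended the VCL call, as did a fit of these groups only (0.150). PXN had 157 to 179 CPM in SALL4 siRNA libraries, against 122 to 146.5 CPM in VRTN siRNA libraries, without overlap and without a call by edgeR (log2 fold change 0.31, SE 0.12, adjusted p = 0.202). PXN passed there with DESeq2 (adjusted p = 0.0387). ITGA6 had 14.3 to 23.2 CPM in SALL4 siRNA libraries, against 15.99 to 20.6 CPM in VRTN siRNA libraries, and no difference was detected (0.03 on the log2 scale, SE 0.20, adjusted p = 0.997, edgeR).

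Under SEPHS1 siRNA, against a selenophosphate synthetase family member, 2 members were called lower, VCL and FLNA, and 0 higher, with 1.53% of all genes called (0.602% higher and 0.931% lower). By edgeR 4 members had an unadjusted p under 0.05, against 12.8% of all genes, and DESeq2 and limma-voom also called 0 higher. The median log2 fold change was -0.19 over the members, against -0.02 over all genes, and 4 members did not overlap, against 13.0% of all genes. Beside this, transcripts of the mitochondrial genome took 38.7 to 45.5% of counts in these libraries, against 27.9 to 33.4% in the 4 control libraries.

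FLNA had 1907, 1791 and 1783 CPM in SEPHS1 siRNA libraries, against 2233 and 2456 CPM in Control and 2438 and 2317 CPM in Luciferase libraries. The groups did not overlap, and the level was 77.4% of the controls (log2 fold change -0.37, SE 0.08, adjusted p = 0.0144, edgeR). A correction of each library for gene length and GC content brought FLNA to -0.12 on the log2 scale (adjusted p = 0.602, edgeR). Leaving out SEPHS1 replicate 2 (edgeR adjusted p = 0.0836), SEPHS1 replicate 3 (0.0915), Control replicate 2 (0.0678) or Luciferase replicate 1 (0.0747) also ended the call. Across the 16 libraries FLNA had r = -0.575 with the mitochondrial share, the strongest such value among the members, and without the counts of the mitochondrial genome FLNA was still called (log2 fold change -0.36, adjusted p = 0.00764, edgeR).

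VCL had 512, 471 and 474 CPM in SEPHS1 siRNA libraries, against 679 and 631 CPM in Control and 673 and 628 CPM in Luciferase libraries. Vinculin was again below all controls, at 74.4% of their level (log2 fold change -0.43, SE 0.10, adjusted p = 0.0252, edgeR). With the length and GC correction the log2 fold change was -0.32 (adjusted p = 0.0977, edgeR). Leaving out SEPHS1 replicate 2 (edgeR adjusted p = 0.118), SEPHS1 replicate 3 (0.129), Control replicate 1 (0.0673) or Luciferase replicate 1 (0.0757) ended the call. PXN had 192 to 205 CPM, against 230 to 247 CPM in the controls, and TLN1 109 to 126 CPM, against 138 to 166 CPM. Both lay below every control library and neither was called (log2 fold changes -0.28 and -0.35, adjusted p = 0.24 and 0.14, edgeR). Of the receptors, ITGB5 stood at -0.00 on the log2 scale (SE 0.15), ITGB1 0.14 (SE 0.17), ITGA6 -0.14 (SE 0.18), ITGAV 0.21 (SE 0.51) and ITGA5 -0.25 (SE 0.24), and all 5 overlapped the controls.

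Under DSCC1 siRNA, against a subunit of a replication factor that acts in sister chromatid cohesion, 0 of the 10 members were called by edgeR, DESeq2 or limma-voom, and 0 had an unadjusted p under 0.05 by edgeR, against 5.84% of all genes. Of all genes tested 0.0455% were called, all of them higher (0.0% lower). No member was free of overlap with the controls, against 9.1% of all genes. VCL had 520 to 645 CPM, against 628 to 679 CPM in the controls (log2 fold change -0.19, SE 0.10), and PXN 199 to 251 CPM, against 230 to 247 CPM (log2 fold change -0.09). The receptors with the largest fitted values were ITGAV (log2 fold change -0.58, SE 0.52) and ITGA5 (-0.47, SE 0.24). ITGA6 had 27.4 to 34.2 CPM, against 26.5 to 35.9 CPM in the controls, and FLNA 2185 to 2420 CPM, against 2233 to 2456 CPM.

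**Figure D3:**
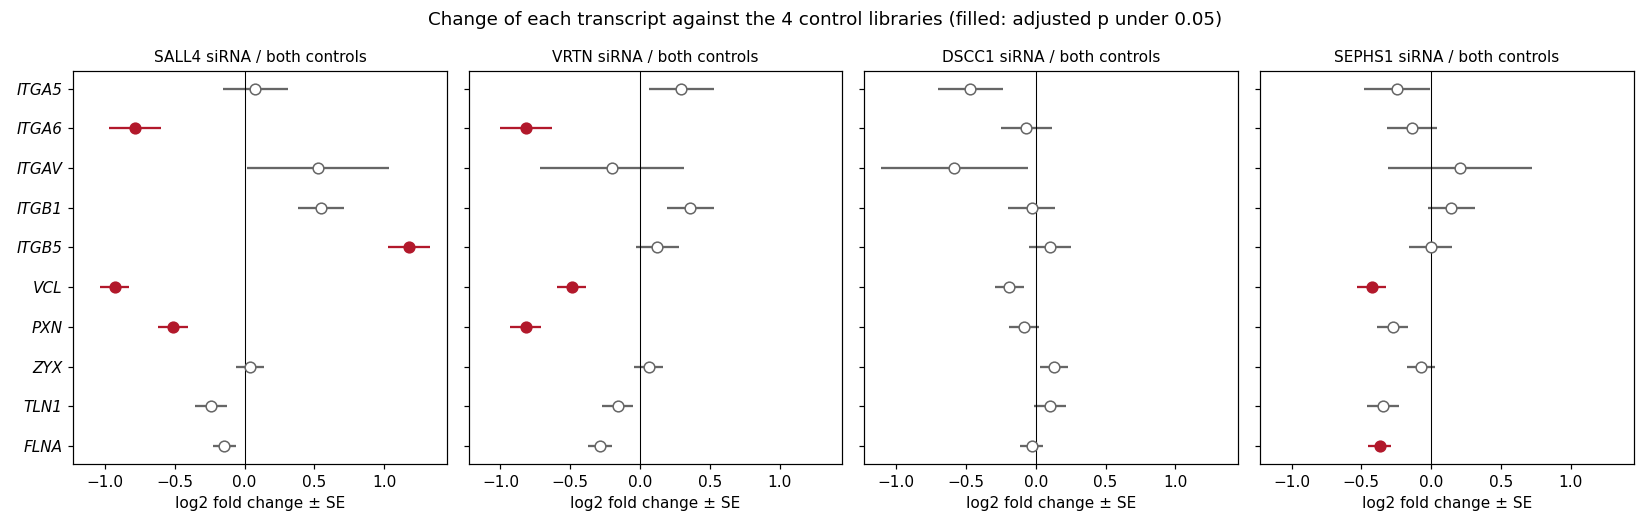
Log2 fold change of each gene against the 4 control libraries, with its standard error as a bar, for the 4 knockdowns. Filled points passed an adjusted p of 0.05: 4 under SALL4 siRNA, 3 under VRTN, 0 under DSCC1 and 2 under SEPHS1, with ITGB5 under SALL4 siRNA (1.18) the only filled point above 0.

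DSCC1 siRNA and SEPHS1 siRNA, both at 72 h, were compared without the controls, and 0 members were called by edgeR, with 0.268% of all genes called (0.238% higher and 0.0303% lower). By edgeR 3 members had an unadjusted p under 0.05, against 9.58% of all genes. DESeq2 called 2 members and limma-voom 1, where they called 1.08 and 0.121% of all genes. FLNA had 2185, 2344 and 2420 CPM in DSCC1 siRNA libraries, against 1907, 1791 and 1783 CPM in SEPHS1 siRNA libraries (log2 fold change 0.34, SE 0.09, adjusted p = 0.097, edgeR). TLN1 had 145 to 178 CPM in DSCC1 siRNA libraries, against 109 to 126 CPM in SEPHS1 siRNA libraries (log2 fold change 0.45, SE 0.12, adjusted p = 0.125, edgeR). VCL had 520 to 645 CPM, against 471 to 512 CPM in SEPHS1 siRNA libraries (log2 fold change 0.24, SE 0.11, adjusted p = 0.49, edgeR). These 3 genes were the ones without overlap, against 14.0% of all genes.

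The Control and Luciferase siRNAs, set against each other with 2 libraries each, gave 0 called members by edgeR, DESeq2 or limma-voom, and 0 with an unadjusted p under 0.05 by edgeR, against 1.07% of all genes. Of all genes 0.0% were called. ZYX was the 1 member without overlap, with 741 and 696 CPM in Control libraries, against 687 and 682 CPM in Luciferase libraries, where 28.3% of all genes did not overlap. Over all 16 libraries ZYX stayed within 629 to 865 CPM and was called in no comparison, with log2 fold changes against the controls of 0.04 under SALL4 siRNA, 0.06 under VRTN, 0.13 under DSCC1 and -0.07 under SEPHS1.

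**Figure D4:**
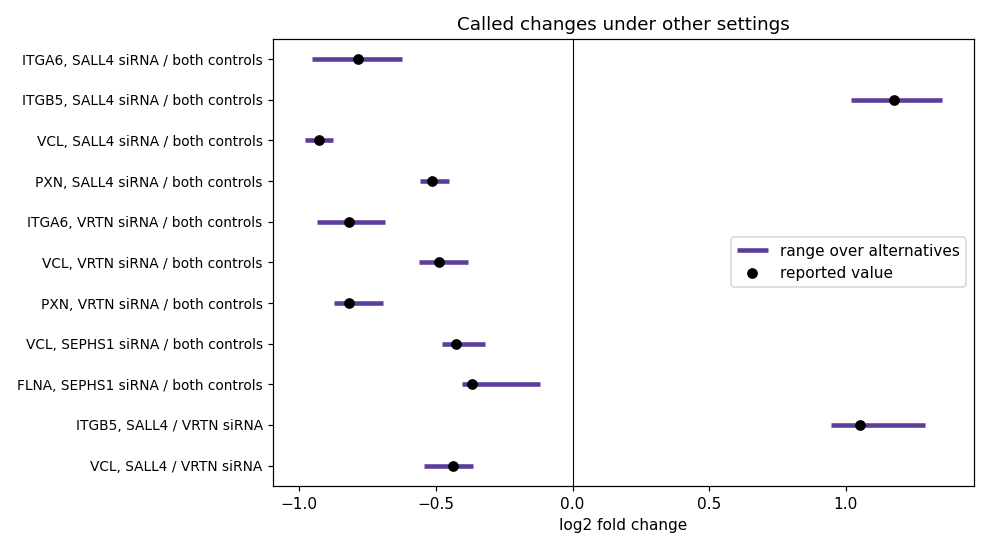
Reported log2 fold change (point) of each called gene and comparison, with its range over all alternative settings (line). Every line stays on its side of 0, and that of FLNA under SEPHS1 siRNA comes closest, at -0.12.

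Over the 16 libraries the members are set against each other by Pearson's r (n = 16), as a description only, because libraries of 1 group share their treatment. ITGA6 varied with PXN (r = 0.804) and with VCL (r = 0.769), and VCL with PXN (r = 0.705), on log2 CPM. ITGB5 ran opposite to VCL (r = -0.82), and ITGB1 ran opposite to VCL (r = -0.629) and PXN (r = -0.61). TLN1 and FLNA, both large actin-linked proteins, had r = 0.74. The 2 beta subunits had r = 0.522. The ratio of ITGA5 to ITGA6 per kilobase was 2.70, 2.43 and 0.826 in SALL4 siRNA libraries and 2.21, 2.59 and 1.71 in VRTN siRNA libraries, against 1.64 and 0.694 in Control and 1.13 and 0.744 in Luciferase libraries. SALL4 replicate 3 thus lay within the control range and the other 5 libraries of these knockdowns above it.

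**Figure D5:**
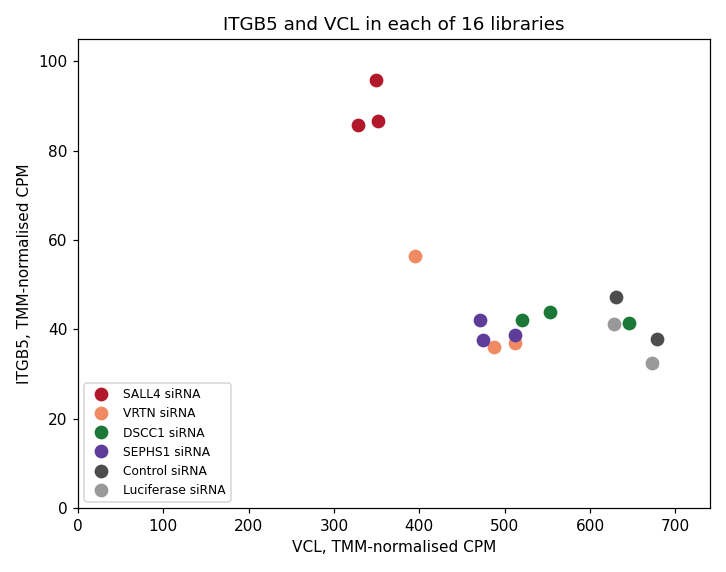
ITGB5 against VCL, both in TMM-normalised CPM with axes from 0, with 1 point per library coloured by siRNA group. The 3 SALL4 siRNA libraries stand apart at 328 to 352 CPM of VCL and 85.8 to 95.8 CPM of ITGB5, and the other groups spread along VCL at an ITGB5 level of 32.5 to 56.3 CPM.

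The genes whose log2 CPM was most like that of each member, among 5526 genes averaging at least 4 log2 CPM, were read over the same 16 libraries. ITGB5 was closest to COL6A1 (r = 0.953) and PDPN (r = 0.94), and VCL to SALL2 (r = 0.91) and ACTA1 (r = 0.903). PXN was closest to PEPD (r = 0.933) and ITGA6 to POLR1A (r = 0.891) and EPCAM (r = 0.884). TLN1 was closest to CKB (r = 0.897), FLNA to EDC4 (r = 0.896), ITGB1 to UBE2L3 (r = 0.853), ITGAV to QSER1 (r = 0.827) and ZYX to KLC2 (r = 0.791). Each is among the highest of the 5526 values searched for that gene and carries no test.

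Of 21 other subunits 15 passed the filter, and 0 were called under SALL4 siRNA, 1 was lower under VRTN and 0 were called under DSCC1 or SEPHS1 by edgeR, which called 2.98, 1.13, 0.0455 and 1.53% of all genes under SALL4, VRTN, DSCC1 and SEPHS1 siRNA. At an unadjusted p under 0.05 there were 3 of 15 under SALL4 siRNA, against 13.1% of all genes, and 0 under DSCC1 or SEPHS1, against 5.84 and 12.8%, and DESeq2 and limma-voom called 0 in these 3 comparisons. Their median log2 fold changes were -0.38, -0.51, -0.23 and -0.24 for SALL4, VRTN, DSCC1 and SEPHS1 siRNA, against 0.02, 0.02, 0.00 and -0.02 over all genes. Between Control and Luciferase siRNA, where 0 were called, the median of this list was -0.31, against 0.00 over all genes. The DSCC1 and SEPHS1 medians were smaller in size than this control value, and the SALL4 and VRTN medians were larger. Levels differed widely within the list. Over the 16 libraries the median was 0 CPM for ITGA4, ITGAX and ITGB2 and 0.024 CPM for ITGA11. It was 54.8 CPM for ITGA3 and 40.9 CPM for ITGA7. The list medians thus rest in part on genes near the floor. The control value comes from 2 libraries against 2, fewer than in the knockdown comparisons. ITGA3, a laminin receptor subunit, averaged 38.6 CPM under VRTN siRNA, against 63.5 CPM in the controls (log2 fold change -0.72, SE 0.17, adjusted p = 0.0196, edgeR). That call was lost when any of 4 of the 16 libraries, the 3 VRTN libraries or Control replicate 1, was left out (highest adjusted p = 0.126, edgeR).

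Of 41 adaptors and kinases of adhesions, all tested, 2 were higher and 2 lower under SALL4 siRNA, 1 was lower under VRTN, 0 were called under DSCC1 and 4 were lower under SEPHS1, against 2.98, 1.13, 0.0455 and 1.53% of all genes called. Under DSCC1 siRNA 2 of 41 had an unadjusted p under 0.05 by edgeR, near the 5.84% of all genes, and 0 were called by DESeq2 or limma-voom. Under SEPHS1 siRNA DESeq2 called 4 and limma-voom 0, where they called 2.97 and 0.799% of all genes. Their median log2 fold changes were 0.04, -0.06, -0.02 and -0.15 in the same order of knockdowns. PDLIM7 and ARHGEF7 were called higher under SALL4 siRNA with adjusted p values of 0.0343 and 0.0445 (edgeR), and leaving out any of 5 and 9 of the 16 libraries ended these calls. With the replicate block ARHGEF7 was not called (adjusted p = 0.0732, edgeR). SORBS3 was lower under VRTN siRNA (log2 fold change -0.47, adjusted p = 0.0448, edgeR), a call lost without any of 9 libraries. Under SEPHS1 siRNA filamin C (FLNC) averaged 51.0 CPM, against 116 CPM in the controls (log2 fold change -1.18, SE 0.22, adjusted p = 0.00163, edgeR), but missed the threshold with limma-voom (adjusted p = 0.0534). Tensin 1 (TNS1), which links integrin tails to actin, averaged 4.48 CPM, against 11.9 CPM (log2 fold change -1.40, SE 0.30, adjusted p = 0.0103, edgeR), and TNS1 missed the threshold when SEPHS1 replicate 2 was left out (edgeR adjusted p = 0.0788).

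Of 28 actin cytoskeleton and SRF target genes, all tested, 3 were higher and 1 lower under SALL4 siRNA, 2 higher and 3 lower under VRTN, 0 were called under DSCC1, and 1 was higher and 3 lower under SEPHS1, against 2.98, 1.13, 0.0455 and 1.53% of all genes called. Under DSCC1 siRNA 5 of 28 had an unadjusted p under 0.05 by edgeR, against 5.84% of all genes. DESeq2 and limma-voom called 1 each, where they called 1.86 and 0.207% of all genes. Their median log2 fold changes were 0.07, 0.07, 0.06 and -0.28. The smooth muscle actin ACTG2 averaged 651 CPM under SALL4 siRNA and 16.7 CPM under VRTN siRNA, against 61.4 CPM in the controls (log2 fold changes 3.41 and -1.87, adjusted p = 7.61e-16 and 2.5e-08, edgeR). The matricellular gene CCN1, which encodes an integrin ligand, averaged 259 ± 10.4 CPM under SALL4 siRNA and 120 ± 3.07 CPM under VRTN siRNA, against 176 ± 10.3 CPM in the controls (log2 fold changes 0.56 and -0.55, adjusted p = 0.00072 and 0.00238, edgeR). Set directly against VRTN siRNA, SALL4 siRNA gave log2 fold changes of 5.28 for ACTG2 and 1.11 for CCN1 (adjusted p = 7.28e-19 and 5.64e-08, edgeR). CNN1 was lower under SALL4 siRNA and SEPHS1 siRNA (log2 fold changes -0.74 and -0.68, adjusted p = 0.00122 and 0.00653, edgeR). It was also called lower under VRTN siRNA (-0.60 on the log2 scale, adjusted p = 0.0189, edgeR). Against replicate 2 of both control siRNAs alone, CNN1 missed the threshold under SALL4 siRNA (adjusted p = 0.057) and under SEPHS1 siRNA (0.251, edgeR). TAGLN averaged 479 CPM under SEPHS1 siRNA, against 750.3 CPM in the controls (log2 fold change -0.65, adjusted p = 0.000758, edgeR). Against replicate 2 of both control siRNAs alone TAGLN missed the threshold (-0.41 on the log2 scale, adjusted p = 0.113, edgeR). Under VRTN siRNA MYL6 (log2 fold change 0.68) and ACTA2 (2.13) and under SEPHS1 siRNA PFN1 (0.42) were called higher (adjusted p = 0.0111, 0.0386 and 0.0126, edgeR), and 2, 5 and 3 single libraries ended these calls when left out. ACTA2 overlapped the controls, with 7.40 to 39.9 CPM under VRTN siRNA, against 1.73 to 9.86 CPM in the 4 control libraries. Its log2 fold change was 1.69 without VRTN replicate 2 and 3.00 without Control replicate 1.

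Of 28 matrix ligands 27 were tested, of which 4 were higher and 3 lower under SALL4 siRNA, 3 higher and 1 lower under VRTN, 0 called under DSCC1 and 5 lower under SEPHS1, against 2.98, 1.13, 0.0455 and 1.53% of all genes called. Under DSCC1 siRNA 6 of 27 had an unadjusted p under 0.05 by edgeR, against 5.84% of all genes, and 0 were called by DESeq2 or limma-voom. Limma-voom called 8 higher and 5 lower under SALL4 siRNA, where it called 6.53% of all genes, and 2 lower under SEPHS1 siRNA, where it called 0.799%. The medians were 0.14, 0.03, -0.10 and -0.41. Fibronectin (FN1), the ligand of ITGA5 with ITGB1, averaged 261 CPM under SALL4 siRNA and 294 CPM under VRTN siRNA, against 158 CPM in the controls (log2 fold changes 0.72 and 0.89, adjusted p = 0.000247 and 1.89e-05, edgeR). COL6A1 averaged 534 ± 86.3 CPM under SALL4 siRNA, against 144 ± 20.3 CPM in the controls (log2 fold change 1.89, SE 0.15, adjusted p = 2.14e-10, edgeR). Under VRTN siRNA COL6A1 was called higher (log2 fold change 0.62, adjusted p = 0.0193, edgeR), but not without VRTN replicate 3 (log2 fold change 0.32, adjusted p = 0.459, edgeR). The fibrillar collagen COL1A1 averaged 933 ± 403 CPM under SALL4 siRNA and 678 ± 164 CPM under VRTN siRNA, against 1653 ± 119 CPM in the controls (log2 fold changes -0.82 and -1.28, adjusted p = 0.00498 and 4.64e-05, edgeR). The laminin chain LAMA1 averaged 9.03 CPM under SALL4 siRNA, against 19.3 CPM in the controls (log2 fold change -1.09, adjusted p = 0.00874), a call that missed the threshold when SALL4 replicate 1 was left out (edgeR adjusted p = 0.0501). Under SEPHS1 siRNA the laminin chain LAMA5 averaged 220.3 CPM, against 375 CPM, and the perlecan gene HSPG2 50.7 CPM, against 106 CPM in the controls (log2 fold changes -0.77 and -1.07, adjusted p = 0.000605 and 0.000996, edgeR).

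Marker sums of pluripotent cells and of other cell types are given beside these changes. Several of their ranges overlapped those of the controls. The sums themselves and their part in the changes were not tested. Fibroblast markers summed to 806 to 1770 CPM in SALL4 siRNA, 786 to 1320 in VRTN, 1940 to 2130 in DSCC1 and 1430 to 1530 in SEPHS1 libraries, against 1950 to 1980 in Control and 2130 to 2360 in Luciferase libraries. COL1A1, which belongs to both lists, makes up much of that sum. Pluripotency markers summed to 4170 to 4670 CPM in SALL4 siRNA, 5440 to 6680 in VRTN, 4940 to 5760 in DSCC1 and 4080 to 5230 in SEPHS1 libraries, against 5460 to 6630 in Control and 5940 to 6260 in Luciferase libraries. Smooth muscle markers summed to 56.4 to 93.8 CPM in SALL4 siRNA, 61.7 to 125 in VRTN, 74.3 to 89.5 in DSCC1 and 49.8 to 63.8 in SEPHS1 libraries, against 85.3 to 108 in Control and 93.4 to 125 in Luciferase libraries. CNN1, also in the actin list, had the highest median of these, 1316 counts, against 393 for SMTN, 87 for ACTA2 and 16 for MYH11. Endothelial markers summed to 69.2 to 181 CPM in SALL4 siRNA, 36.4 to 60.6 in VRTN, 44.6 to 57.2 in DSCC1 and 42.3 to 73.5 in SEPHS1 libraries, against 70.4 to 86.7 in Control and 68.8 to 85.1 in Luciferase libraries. This sum is mostly KDR (median 1266 counts), with medians of 193 for TEK, 7 for VWF and 0 for PECAM1 and CDH5. Neuroectoderm markers summed to 118 to 147 CPM in SALL4 siRNA, 163 to 209 in VRTN, 170 to 193 in DSCC1 and 133 to 157 in SEPHS1 libraries, against 181 to 188 in Control and 177 to 207 in Luciferase libraries. On this unscaled measure they lay below all controls under SALL4 and SEPHS1 siRNA. TMM factors were 0.775 to 0.942 in SEPHS1 siRNA libraries, against 1.016 to 1.139 in the 4 control libraries. A lower factor raises scaled values, so TMM scaling would narrow the SEPHS1 gap, and scaled sums were not computed. This sum is mainly NES and OTX2 (medians of 2776 and 1158 counts), against 0 for PAX6, 22 for SOX1 and 16 for ZIC1. Endoderm markers summed to 2.03 to 10.5 CPM in SALL4 siRNA, 12.1 to 21.6 in VRTN, 7.86 to 11.4 in DSCC1 and 4.21 to 7.97 in SEPHS1 libraries, against 4.78 to 10.4 in Control and 5.43 to 6.95 in Luciferase libraries. On the unscaled measure they lay above all controls under VRTN siRNA. Mesoderm markers summed to 7.16 to 14.7 CPM in SALL4 siRNA, 8.28 to 12.2 in VRTN, 4.03 to 5.45 in DSCC1 and 2.35 to 5.73 in SEPHS1 libraries, against 3.06 to 12.1 CPM in the 4 control libraries. Trophectoderm markers summed to 1.40 to 3.60 CPM in SALL4 siRNA, 1.95 to 4.58 in VRTN, 2.91 to 6.08 in DSCC1 and 3.57 to 7.11 in SEPHS1 libraries, against 3.96 to 5.97 CPM in the 4 control libraries. On the unscaled measure they lay below all controls under SALL4 siRNA.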

How the data were processed

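Polyadenylated RNA of H9 cells in 6 siRNA groups (16 libraries) was prepared with a Lexogen SENSE kit, per the labels' protocols. The deposited table holds raw gene counts that the authors made with STAR 2.4.0.1 and HTSeq 0.9.1 on GRCh38, per the submitters' processing notes. The strand setting, the treatment of reads shared between genes and the annotation release are not given in the sources used here. A gene name table supplied symbols for 56558 of 60675 identifiers, and GENCODE 29, which also gave exon lengths, for 497 more. Library totals ran from 18597262 to 28662389, reads carry no molecular identifiers, and floors of 3 counts cover counting error only.

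Counts were filtered with filterByExpr (19772 genes kept, 40903 left out), scaled by TMM and fitted in edgeR 4.0.16 (R 4.3.3) as 1 quasi-likelihood model of 6 groups, with Benjamini-Hochberg adjustment over all genes and a threshold of 0.05. The reference of a knockdown was the average of Control and Luciferase. A standard error is the size of the fitted log2 value over the root of its F statistic. Alternatives were DESeq2 1.42.0, limma-voom (limma 3.58.1), other scalings, filters, control sets and fits, a replicate block, length and GC offsets, and each library left out. The script was tested on simulated data.

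Members, lists and the rule for named genes were chosen with earlier results of these data known. The rule names all 10 members, the 4 targets, of each list up to 2 called genes per direction, and the 2 genes most like each member. Not all are printed, and some named genes are not reported here. P-values measure the spread between these libraries.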

Additional observations from a re-analysis of the deposited data

Results flagged for a closer look

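The direct comparison of the 2 knockdowns harvested at 48 h showed different effects on 2 members. ITGB5 stood 1.05 higher on the log2 scale in SALL4 siRNA cells than in VRTN siRNA cells (adjusted p = 9.99e-05, edgeR), with 3 of 3 SALL4 siRNA libraries above every VRTN siRNA library. VCL had a log2 fold change of -0.44 in the same comparison (adjusted p = 0.0203, edgeR), with 3 of 3 SALL4 siRNA libraries below every VRTN siRNA library. The VCL call ended when SALL4 replicate 1 or 2 or VRTN replicate 1 or 2 was left out (edgeR adjusted p = 0.104, 0.07, 0.115 and 0.151). Explanations were not tested.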

How the results depend on the processing

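Of 2050 values of the members under alternatives, 1994 kept their side of the threshold, 41 lost a call and 15 gained one. Of the values called in either fit 0 changed sign. Values called in neither fit count as kept even where the sign changed. For ITGA5 under SALL4 siRNA, reported at 0.08 on the log2 scale, the alternatives ran from -0.22 to 0.45. Calls of ITGB5 and VCL under SALL4 siRNA, PXN under VRTN siRNA and ITGB5 between SALL4 and VRTN siRNA were kept throughout. For SEPHS1 siRNA against controls (2 called), 0 were called with the length and GC correction, with that correction and the replicate block, with Luciferase or Control libraries alone, or with control replicate 2 of both groups, 1 with control replicate 1, and 0 to 2 without single libraries. For VRTN siRNA against controls (3 called), 1 was called with Luciferase or Control libraries alone, and 1 to 3 without single libraries. For SALL4 siRNA against controls (4 called), 2 to 4 were called without single libraries, and for SALL4 against VRTN siRNA (2 called), 1 in a fit of these groups only and 1 to 2 without single libraries. For DSCC1 against SEPHS1 siRNA (0 called), DESeq2 called 2, limma-voom 1, the replicate block 1, and fits without single libraries 0 to 1. Causes were not tested. Over all genes, calls ranged from 227 to 1291 (590 reported) under SALL4 siRNA, 79 to 397 (223) under VRTN, 2 to 109 (9) under DSCC1, 97 to 519 (303) under SEPHS1, 193 to 897 (482) for SALL4 against VRTN, 22 to 188 (53) for DSCC1 against SEPHS1 and 0 to 1 (0) for Control against Luciferase. With the replicate block, 5 members were called under SALL4 siRNA, 3 under VRTN, 0 under DSCC1, 2 under SEPHS1, 2 for SALL4 against VRTN and 0 for Control against Luciferase, with ITGB1 the added call under SALL4 siRNA (adjusted p = 0.0319, edgeR). In the same order, the block called 820, 283, 15, 270, 686 and 0 of 19772 genes, and 147 for DSCC1 against SEPHS1. Same-numbered libraries had deviations correlated at 0.029, 0.126 and 0.363 for SALL4 and VRTN and at 0.056, 0.007 and 0.159 for DSCC1 and SEPHS1, and 2 of 6 libraries correlated best with their own number in each comparison. Between Control and Luciferase the correlation was 0.338. It is 1 value, because with 2 libraries in a group the deviations of replicates 1 and 2 mirror each other. Against the controls replicates 1 and 2 gave 0.281 and -0.285 for SALL4, 0.24 and -0.212 for VRTN, -0.017 and -0.005 for DSCC1, and 0.01 and -0.006 for SEPHS1. The mirrored control deviations mean that the 2 values of a knockdown are not independent. Not every pair was over 0.1 and no label states a shared batch, so the numbers were not taken to pair the samples, although same-numbered control libraries correlated at 0.338. Leaving out mitochondrial counts, chosen after seeing the data, added a call of FLNA under VRTN siRNA (adjusted p = 0.0464, edgeR). Depth limits ITGAV most, with as few as 20 counts in a library.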

Other observations

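The GC content of the longest transcript was 38.3% for ITGAV, 40.0% for ITGB1 and 42.9% for ITGA6, 45.1% for VCL, 54.3% for ITGB5, 54.5% for ITGA5, 57.7% for TLN1 and 60.2 to 64.9% for PXN, FLNA and ZYX. VCL, close to ITGA6 in GC content, had 65.3 CPM per kilobase in the controls, against 4.94 for ITGA6. Over the tested genes with a mean above 0 log2 CPM, the median control level per kilobase was 1.15 CPM for the 1679 genes of 35 to 40% GC, 1.90 CPM for the 2740 genes of 40 to 45% and 4.52 CPM for the 1527 genes of 60 to 65%. The part of GC content in the levels of the members was not tested.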
